A study of Mus musculus with 8 samples.

Results

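The 31 genes described here encode enzymes and regulators of sterol and fatty acid synthesis: 19 enzymes of the pathway from acetyl-CoA to cholesterol and its side branch to geranylgeranyl diphosphate, 4 genes of its control and of sterol transport, and 8 genes of fatty acid synthesis and desaturation. They were taken by gene symbol from a list of the pathway. They are 31 of the 34745 Ensembl gene identifiers in the table, and all 31 were among the 14040 genes with enough counts to be tested.

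Messenger RNA was sequenced from mouse bone-marrow-derived macrophages, primary cells grown from bone marrow in 20 ng/ml M-CSF, the growth factor that drives macrophage differentiation. The 8 libraries formed 4 groups of 2: wild-type (WT) cells and KAT8-deficient cells, each either untreated or given R848 at 100 ng/ml for 6 h. R848 is a small molecule that activates the endosomal receptor TLR7, and KAT8 is an acetyltransferase of histone H4. The KAT8-deficient libraries are titled KAT8-cKO. How and in which cells KAT8 was removed, the strain and the age of the mice are not stated in the labels, and neither is whether replicate libraries stand for separate mice or cultures. The p-values therefore measure only the spread between these libraries, which may be technical.

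Cells make cholesterol from acetyl-CoA through mevalonate, isoprenoid diphosphates, squalene and lanosterol. When sterol in the endoplasmic reticulum is low, the transcription factors SREBP1 and SREBP2 (genes Srebf1 and Srebf2) are released by cleavage and activate the genes of these pathways, and the INSIG proteins hold them back when sterol is plentiful. Macrophages take up sterol from dead cells and lipoproteins, and both sterol and fatty acid synthesis are known to be adjusted when they meet microbial signals.

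The targeted gene and the response to R848 were examined first. Kat8 lay at 17 and 17.9 CPM (counts scaled to library size) in untreated WT cells and at 18.0 and 16.0 CPM in WT cells with R848. In KAT8-deficient cells it lay at 8.76 and 10.8 CPM untreated and at 9.94 and 10.4 CPM with R848. All KAT8-deficient libraries were thus below all WT libraries, with Kat8 transcript still present; the log2 difference was -0.83 (SE 0.126, adjusted p = 0.0113, edgeR) untreated and -0.74 (SE 0.125, adjusted p = 0.00553) under R848. Tnf, a cytokine gene induced by TLR signalling, lay between 22.8 and 28.1 CPM in the 4 untreated libraries, at 381.4 and 367.9 CPM in WT cells with R848 and at 51.8 and 100.9 CPM in KAT8-deficient cells with R848. Library totals ran from 18550977 to 21384532 counts, and the lowest count of any of the 31 genes in any library was 132.

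The promoters of 4 of the genes are shown because they carry the results below in different ways: Hmgcs1 and Insig1 are textbook SREBP targets, Fasn was higher in KAT8-deficient cells in both states, and Fads2 had the largest genotype difference of the 31 under R848. Each runs 5′ to 3′ from 250 bases before to 50 bases after the annotated start, from RefSeq on GRCm38.p6. The positions are chr13:119690101-119690400 on the plus strand for Hmgcs1, chr5:28071162-28071461 on the plus strand for Insig1, chr11:120824498-120824797 on the minus strand for Fasn and chr19:10101454-10101753 on the minus strand for Fads2. These RefSeq starts can differ from the gene positions given further below. For Fads2 that gene position reaches 10101746, so most of the window shown lies inside it. Capitals mark matches, on either strand, to the sterol regulatory element core TCACNCCAC, the NF-Y box CCAAT, the Sp1 box GGGCGG or the E-box CACGTG.
Hmgcs1: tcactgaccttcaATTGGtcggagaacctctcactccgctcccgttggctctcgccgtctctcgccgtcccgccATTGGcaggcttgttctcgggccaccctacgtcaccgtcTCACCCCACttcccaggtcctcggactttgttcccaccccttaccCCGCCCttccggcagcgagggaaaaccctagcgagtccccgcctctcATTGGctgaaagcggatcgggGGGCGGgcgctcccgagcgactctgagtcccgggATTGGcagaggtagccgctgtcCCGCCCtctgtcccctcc
Insig1: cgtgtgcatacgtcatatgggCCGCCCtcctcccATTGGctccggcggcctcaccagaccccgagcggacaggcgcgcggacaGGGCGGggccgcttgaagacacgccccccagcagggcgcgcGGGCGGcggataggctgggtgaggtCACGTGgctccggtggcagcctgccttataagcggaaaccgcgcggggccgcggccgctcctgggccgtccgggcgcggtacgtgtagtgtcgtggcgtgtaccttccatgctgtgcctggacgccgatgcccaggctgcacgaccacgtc
Fasn: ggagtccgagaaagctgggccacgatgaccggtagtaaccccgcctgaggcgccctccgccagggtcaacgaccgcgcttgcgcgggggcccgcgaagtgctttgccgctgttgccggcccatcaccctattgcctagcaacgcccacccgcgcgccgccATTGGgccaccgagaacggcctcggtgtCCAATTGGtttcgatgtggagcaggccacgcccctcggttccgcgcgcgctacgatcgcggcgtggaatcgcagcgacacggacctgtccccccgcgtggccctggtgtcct
Fads2: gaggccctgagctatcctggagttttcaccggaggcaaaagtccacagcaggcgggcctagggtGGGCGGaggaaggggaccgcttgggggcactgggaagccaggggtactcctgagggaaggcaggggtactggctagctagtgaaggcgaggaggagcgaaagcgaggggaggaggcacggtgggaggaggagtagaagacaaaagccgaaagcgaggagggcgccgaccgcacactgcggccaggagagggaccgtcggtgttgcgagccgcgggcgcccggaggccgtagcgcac

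The Hmgcs1 window holds 1 sterol regulatory element core, 4 NF-Y boxes and 3 Sp1 boxes. Insig1 has 1 NF-Y box, 3 Sp1 boxes and 1 E-box, Fasn has 3 NF-Y boxes, of which 2 overlap on opposite strands, and Fads2 has 1 Sp1 box. SREBPs are known to act together with NF-Y and Sp1, so the same letters were searched in all promoters of the RefSeq table. For the 31 genes, any entry on chromosome 18 was left out, and no chromosome was left out of the count over all promoters. With that, the table held 29 promoters of 24 of the 31 genes. It had no entry for Sqle, Fdps, Fdft1, Stard4, Scd1, Scd2 and Fads1. The NF-Y box was present in 21 of the 29 (72.4%) and in 37.4% of all 32851 promoters, and the Sp1 box in 21 of the 29 (72.4%) and in 35.7% of all. The E-box was present in 4 of the 29 (13.8%, in Hsd17b7, Insig1, Dhcr7 and Sc5d) and in 7.15% of all, and the sterol regulatory element core in 1 of the 29 (3.45%, Hmgcs1) and in 1.24% of all. Only these exact letters were searched, so a window without a match is not shown to lack a site. No match of 1 motif overlapped a match of another in these 29 windows. Some genes have more than 1 promoter in the table, promoters of the same gene are not independent, and a match describes letters, not a bound site. The 32851 promoters were not limited to genes with enough counts to be tested, whereas all of the 31 genes were tested. The 2 sets may thus differ in more than the pathway, and shares among promoters of tested genes were not computed. With only 100 bases before the start, the NF-Y box was in 17 of the 29 (58.6%, against 23.4% of all) and the Sp1 box in 12 (41.4%, against 28.8%). The E-box was then in 1 (3.45%), below the 4.35% of all promoters, and the sterol regulatory element core in 0, against 0.618% of all.

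Levels between genes can be compared only per length, so CPM was divided by the length of all exons of the gene (RPKM). In untreated WT cells Acly, the ATP citrate lyase that supplies cytosolic acetyl-CoA to both pathways, had the highest level at 60.0 ± 0.175 RPKM (SD, n = 2). The desaturase gene Scd2 followed at 51.0 ± 0.0464 RPKM, and the control gene Insig1 at 47.3 ± 1.49 RPKM. Hmgcs1, which encodes the cytosolic HMG-CoA synthase at the entry to the mevalonate pathway, lay at 37.6 ± 2.31 RPKM and Mvd, the mevalonate diphosphate decarboxylase, at 34.4 ± 2.19 RPKM, a gap of the order of their SDs. The lowest levels were those of Ggps1 at 3.14 ± 0.142 RPKM, Acaca at 2.3 ± 0.807 RPKM and the sterol reductase gene Tm7sf2 at 1.55 ± 0.111 RPKM. Scd1, the paralog of Scd2, lay far below it at 12.4 ± 0.929 RPKM. Dividing by the longest transcript in place of all exons changed the order of several genes. It put Insig1 at 54.2 RPKM above Scd2 at 51.1 RPKM, and Mvd at 34.9 RPKM below Srebf2 at 44.2 RPKM and Cyp51 at 36.6 RPKM. It also put Acaca at 4.12 RPKM above Ggps1 at 3.49 RPKM.

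Replicates of these genes lay close together. Over the 31 genes and 4 groups, the higher library was at most 1.2 times the lower in 112 of 124 pairs, with a median ratio of 1.07. Of the 12 wider pairs, 5 were in KAT8-deficient cells with R848 (Sqle 1.53, Dhcr7 1.31, Msmo1 1.29, Scd1 1.29 and Ebp 1.28), and the widest was Acaca in untreated WT cells at 1.66. Of the 31 genes, 10 overlap another gene model in the annotation (Cyp51, Mvd, Acaca, Srebf1, Fdft1, Ggps1, Tm7sf2, Lss, Elovl6 and Fdps), 4 of them on the same strand (Acaca, Tm7sf2, Elovl6 and Fdps). Since no source used here gives the strand setting of the counting, their counts may include reads of the neighbour and are uncertain, as are those of the paralogs Scd1 and Scd2.

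**Figure D1:**
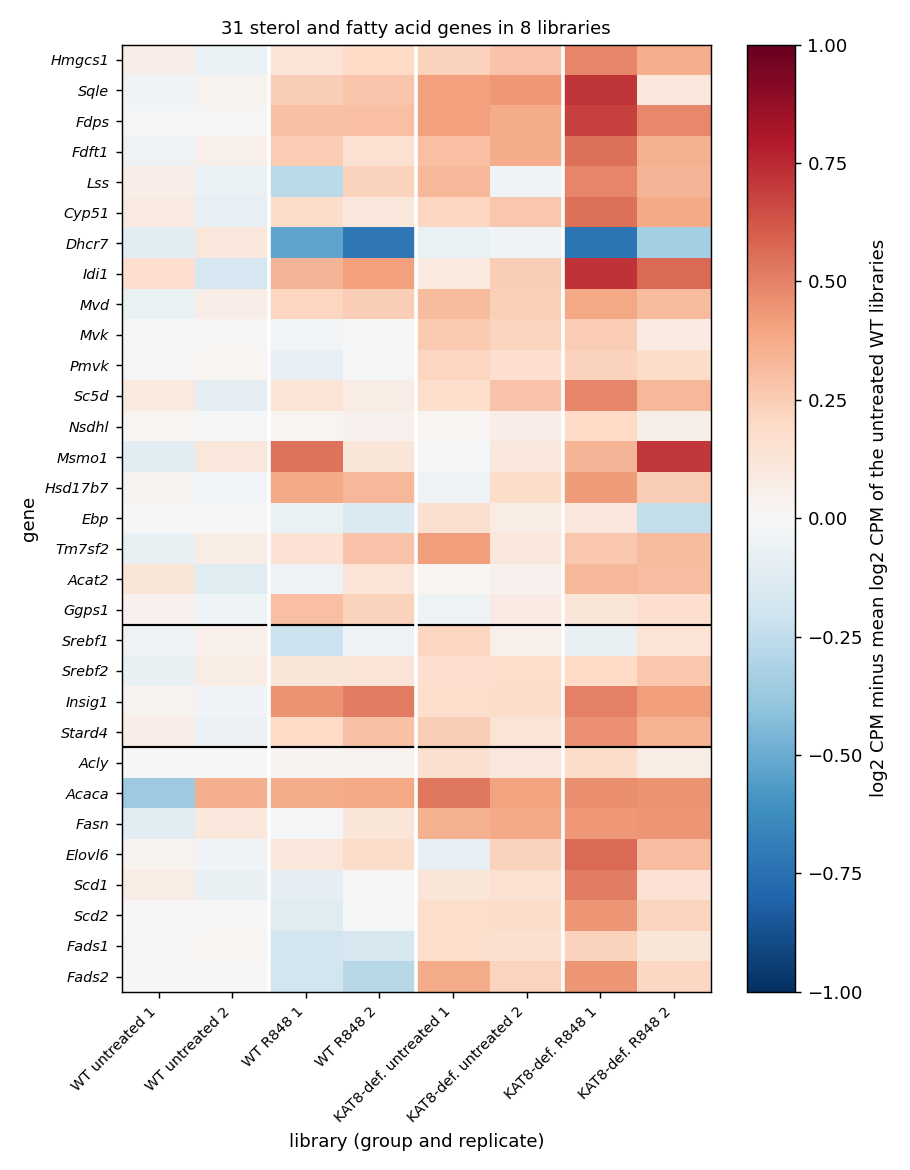
Level of each of the 31 genes (rows, by role, with black lines between the sterol, control and fatty acid genes) in each of the 8 libraries (columns), as log2 CPM minus the mean of the 2 untreated WT libraries. Red is higher and blue lower; the median over genes is 0.18 in both untreated KAT8-deficient libraries and 0.44 and 0.31 in the 2 KAT8-deficient libraries with R848, and Dhcr7 is the row that is blue in all 4 libraries with R848.

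The genotype comparison asks how the loss of KAT8 relates to the level of these genes in each state. Most of the 31 genes were at a slightly higher level in KAT8-deficient cells than in WT cells, untreated and under R848, and few of the single differences passed the test untreated. Without R848 the log2 difference was above 0 for 30 of the 31 genes, with a median of 0.18, against 48.6% above 0 and a median of -0.01 over all 14040 genes. Under R848 it was above 0 for 28 of the 31, with a median of 0.19, against 48.8% and -0.01 over all genes. Tested with edgeR's quasi-likelihood test, adjusted over all genes, 2 of the 31 were higher untreated (Fdps and Fasn) and none lower; 4.27% of all genes were called, 2.91% higher and 1.36% lower. Under R848 8 of the 31 were higher (Hmgcs1, Fdps, Cyp51, Sc5d, Fasn, Scd2, Fads1 and Fads2) and none lower, where 13.6% of all genes were called, 8.14% higher and 5.47% lower. The member share of 6.45% untreated was thus close to the share of all genes, and that of 25.8% under R848 above it.

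The libraries can also be compared without a test. Both KAT8-deficient libraries lay above both WT libraries for 22 of the 31 genes untreated and below for 0, against 24.9% and 25.5% of all genes. Under R848 the counts were 22 above and 1 (Ggps1) below, against 29.2% and 30.3% of all genes. The untreated and the R848 comparison share no library, and 17 of the 31 (54.8%) were separated upwards in both, against 14.7% of all genes. The labels do not state whether untreated and treated libraries of a genotype come from the same mice or cultures. The comparisons may thus not be independent, and neither may genes of the same pathway. For 15 of the 31 (48.4%) all 4 KAT8-deficient libraries lay above all 4 WT libraries, against 9.42% of all genes, and for 0 of the 31 all 4 lay below, against 6.6% of all. Those 15 were Hmgcs1, Mvk, Pmvk, Fdps, Fdft1, Cyp51 and Sc5d of the sterol pathway, Srebf2 of the control genes, and Acly, Acaca, Fasn, Scd1, Scd2, Fads1 and Fads2 of the fatty acid genes.

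These counts depend on single libraries, since each group has 2. Under R848 the count of 8 was 1 without the first WT library with R848, 4 without the second, 2 without the first KAT8-deficient library with R848 and 10 without the second. It was 4 without either untreated KAT8-deficient library and 8 without either untreated WT library. Untreated, the count of 2 was 0 without the first untreated WT library, without either WT library with R848 or without either untreated KAT8-deficient library, 2 without the second untreated WT library (Acaca and Fasn) and 3 without either KAT8-deficient library with R848. The median difference of the 31 genes stayed between 0.171 and 0.192 untreated and between 0.187 and 0.286 under R848 over these 8 fits.

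**Figure D2:**
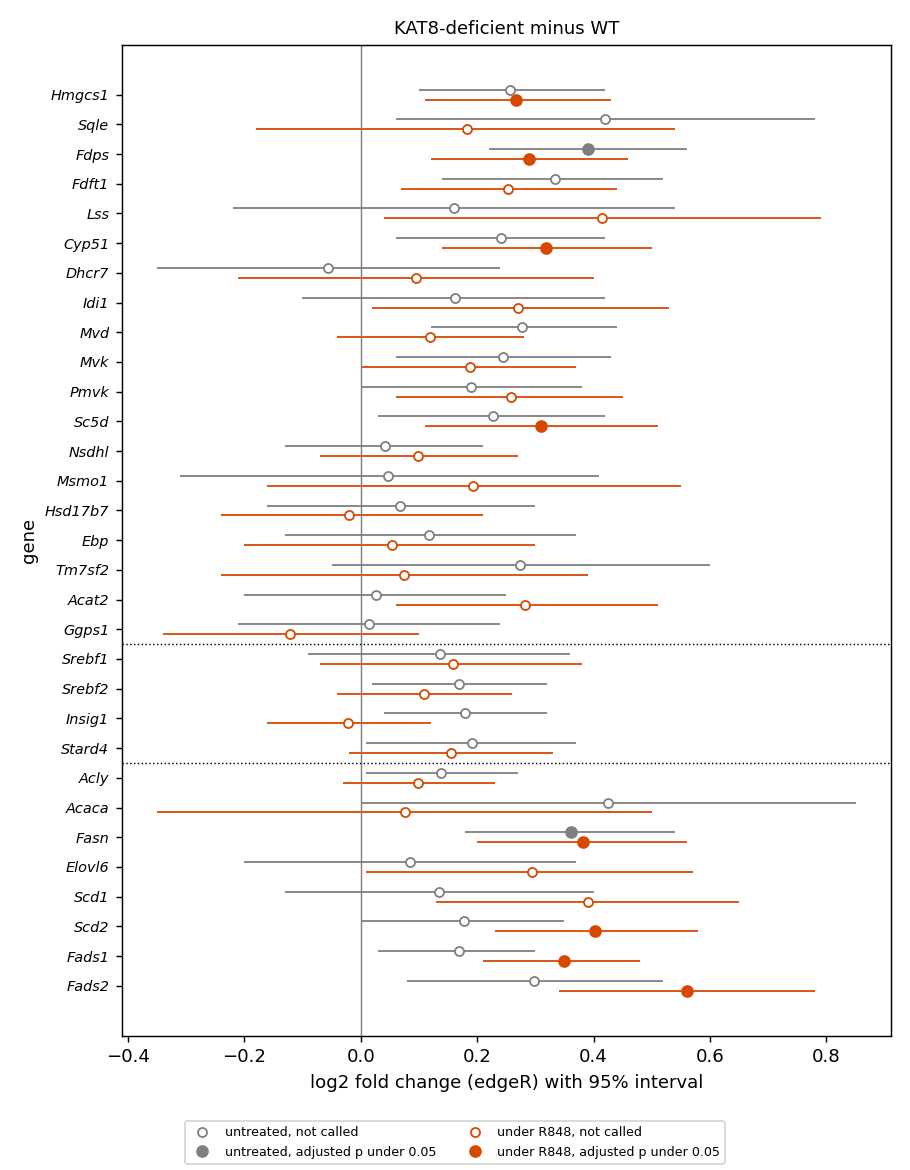
Log2 difference between KAT8-deficient and WT cells (x axis, edgeR, with 95% intervals) for each of the 31 genes (y axis, by role), untreated in grey and under R848 in orange, with filled points for an adjusted p under 0.05. All but 1 of the untreated points and all but 3 of the R848 points lie to the right of 0, and the fatty acid genes Fads2, Scd2, Fasn and Fads1 are among the filled R848 points.

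Markers of other cell types moved in the same comparison. The summed level of 10 stromal markers (among them Col1a1 and Dcn) was 3277 and 3796 CPM in untreated WT cells, 2753 and 2958 CPM in WT cells with R848, 4806 and 4560 CPM in untreated KAT8-deficient cells and 4136 and 4044 CPM in KAT8-deficient cells with R848. Of the 10, 8 were called higher in KAT8-deficient cells untreated and 9 under R848, against 2.91% and 8.14% of all genes. The sum of 5 mesothelial markers ran from 403.2 to 411.2 CPM in untreated WT cells and from 337.4 to 345.3 CPM in WT cells with R848. In KAT8-deficient cells it ran from 576.9 to 604.3 CPM untreated and from 527.5 to 618.0 CPM with R848. Of these 5 markers, 2 were called higher untreated and 5 under R848, against the same shares of all genes. The sum of 6 macrophage markers was 3648 to 3803 CPM untreated and 3676 to 3990 CPM with R848 in WT cells. In KAT8-deficient cells it was 3331 to 3578 CPM untreated and 3210 to 3560 CPM with R848. The labelled cell type's markers were thus present in every library. The 6 did not all move with their sum: 2 had a genotype difference above 0 untreated and 3 under R848. Untreated 0 were called, against 4.27% of all genes. Under R848 1 was called higher and 2 lower, against 8.14% and 5.47% of all genes. All 6 adipocyte markers, Adipoq and Plin1 among them, were at or under 3 counts in every library, as were the endothelial markers Pecam1 and Tie1 and the neutrophil markers Ly6g, Elane and Mpo. The endothelial sum was 21.2 to 38.5 CPM and the neutrophil sum 4.29 to 7.79 CPM over the 8 libraries. The part of stromal and mesothelial RNA in the genotype differences of the 31 genes was not tested. In bulk RNA, fewer cells of a type and less RNA per cell cannot be told apart.

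**Figure D3:**
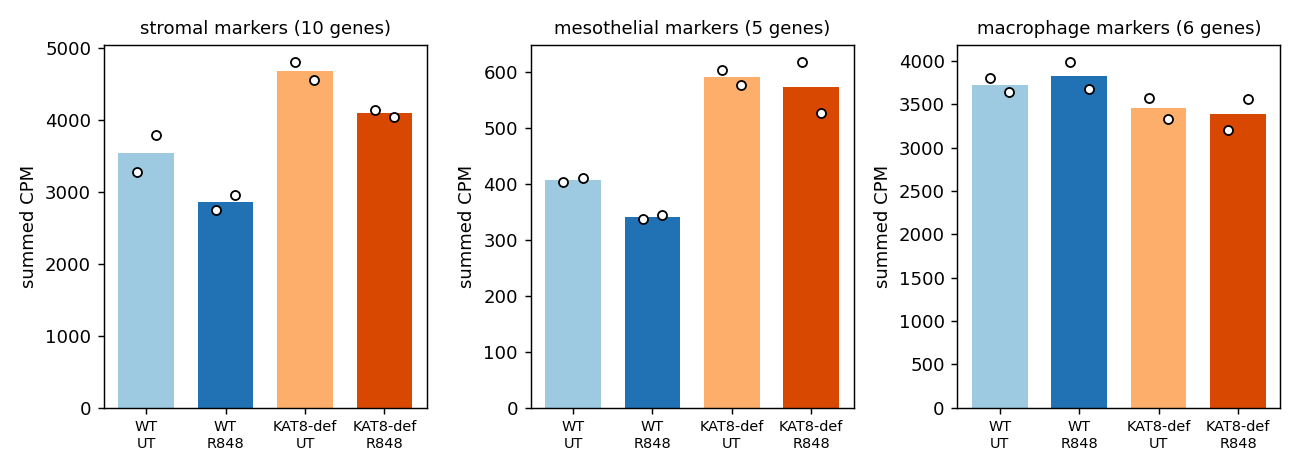
Summed CPM of 10 stromal, 5 mesothelial and 6 macrophage marker genes (y axes, each starting at 0) in the 4 groups, with bars at the mean of 2 libraries and points for the libraries (UT, untreated). The KAT8-deficient libraries lie above the WT libraries of the same treatment for the stromal and mesothelial sums and below them for the macrophage sum. Of the 6 macrophage markers taken singly, 2 had a genotype difference above 0 untreated and 3 under R848.

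The sterol enzymes are taken in the order of the pathway. Hmgcs1 (chr13:119690379-119708260, GRCm38) lay at 180.2 and 165.2 CPM in untreated WT cells, 188.7 and 197.8 CPM in WT cells with R848, 202.6 and 209.9 CPM in untreated KAT8-deficient cells and 242.6 and 222.5 CPM in KAT8-deficient cells with R848. The 4 groups did not overlap, in that order. The genotype difference was 0.26 (SE 0.0705, adjusted p = 0.0845, edgeR) untreated, which did not pass, and 0.27 (SE 0.0704, adjusted p = 0.0396) under R848, where 3 of 8 fits without a library kept the call (adjusted p from 0.0313 to 0.206) and the fit of only the 4 R848 libraries lost it (adjusted p = 0.0614). The next enzymes, the mevalonate kinase Mvk and the phosphomevalonate kinase Pmvk, gave 0.25 and 0.19 untreated, with Pmvk at 0.26 under R848 (adjusted p = 0.0822), none passing. Mvk lay from 30.7 to 31.6 CPM in the 4 WT libraries and from 33.2 to 37.6 CPM in the 4 KAT8-deficient libraries.

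Fdps (chr3:89093588-89101959), which encodes farnesyl diphosphate synthase, the enzyme before the branch to squalene, was the sterol gene called in the most comparisons. It lay at 66.8 and 67.7 CPM in untreated WT cells, 82.5 and 82.9 CPM in WT cells with R848, 89.2 and 87.1 CPM in untreated KAT8-deficient cells and 108.1 and 94.0 CPM in KAT8-deficient cells with R848. The 4 groups again did not overlap. The genotype difference was 0.39 (SE 0.0746, adjusted p = 0.0273, edgeR) untreated and 0.29 (SE 0.074, adjusted p = 0.0352) under R848. Leaving out single libraries gave adjusted p from 0.0142 to 0.17 untreated and from 0.0118 to 0.186 under R848, passing in 2 and 3 of 8 fits, and the R848 value was 0.187 without the first KAT8-deficient library with R848. That R848 call was also lost with DESeq2's Wald test (adjusted p = 0.0531) and with only the 4 R848 libraries (adjusted p = 0.0809). Fdft1, the squalene synthase gene, lay at 62.1 and 67.0 CPM, 76.9 and 71.8 CPM, 79.2 and 83.3 CPM, and 94.6 and 82.7 CPM in the same order of groups, with differences of 0.33 (adjusted p = 0.0642) untreated and 0.25 (adjusted p = 0.0802) under R848 that did not pass. The untreated value of Fdft1 passed with no filter, with robust spread and without either KAT8-deficient library with R848 (adjusted p from 0.0367 to 0.257 over its alternatives). Its R848 value passed without the second of those libraries (0.352, adjusted p = 0.0408) and was 0.156 without the first (adjusted p = 0.365).

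Sqle, which encodes squalene epoxidase, the first oxygenation step, lay at 93.7 and 98.5 CPM in untreated WT cells, 113.8 and 116.1 CPM in WT cells with R848, 127.5 and 129.5 CPM in untreated KAT8-deficient cells and 157.8 and 103.2 CPM in KAT8-deficient cells with R848. The last pair spans all the libraries but the untreated WT ones. The untreated genotype difference of 0.42 (SE 0.159, adjusted p = 0.184, edgeR) did not pass in the fit of all 8 libraries, and it passed when only the 4 untreated libraries were fitted (adjusted p = 0.0281) or when either KAT8-deficient library with R848 was left out (adjusted p = 0.0113 in both). Over its alternatives that adjusted p ran from 0.0113 to 0.432. Lss, the lanosterol synthase gene, lay from 64.8 to 91.9 CPM in WT cells with R848 and from 99.0 to 109.9 CPM in KAT8-deficient cells with R848, a difference of 0.41 (SE 0.166, adjusted p = 0.143) that did not pass. It was 0.693 with adjusted p = 0.0393 without the second WT library with R848 and 0.189 with adjusted p = 0.547 without the first.

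The later sterol enzymes Cyp51 and Sc5d were called under R848 and not untreated. Cyp51 (chr5:4081145-4104746), the lanosterol demethylase, lay at 151.6 and 136.0 CPM in untreated WT cells, 162.8 and 154.7 CPM in WT cells with R848, 166.4 and 173.5 CPM in untreated KAT8-deficient cells and 210.0 and 186.3 CPM in KAT8-deficient cells with R848. Its genotype difference was 0.24 (SE 0.0806, adjusted p = 0.143, edgeR) untreated and 0.32 (SE 0.0804, adjusted p = 0.0328) under R848. Sc5d (chr9:42251595-42264256), a sterol desaturase near the end of the pathway, lay at 85.2 and 74.7 CPM, 87.6 and 83.9 CPM, 90.1 and 97.2 CPM, and 112.1 and 100.4 CPM in the same order. Its difference was 0.23 (SE 0.0863, adjusted p = 0.184) untreated and 0.31 (SE 0.0859, adjusted p = 0.0471) under R848. For both genes all 4 KAT8-deficient libraries lay above all 4 WT libraries, and both R848 calls were lost when only the 4 R848 libraries were fitted (adjusted p = 0.054 for Cyp51 and 0.0528 for Sc5d; that of Sc5d also with DESeq2 size factors, adjusted p = 0.0501), with 3 of 8 fits without a library keeping each call (adjusted p from 0.0232 to 0.179 and from 0.0343 to 0.228). The difference of the untreated and R848 genotype effects, tested as an interaction below, passed for neither.

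Of the other sterol enzymes none was called by genotype. Nsdhl, a sterol dehydrogenase, lay within 35.6 to 41.5 CPM over all 8 libraries, and Ggps1, which makes geranylgeranyl diphosphate for protein prenylation, within 14.3 to 18.2 CPM. Acat2, the cytosolic thiolase that condenses acetyl-CoA ahead of Hmgcs1, lay at 27.7 and 31.3 CPM in WT cells with R848 and at 36.1 and 35.6 CPM in KAT8-deficient cells with R848, a difference of 0.28 (adjusted p = 0.1, edgeR). Idi1, Mvd, Msmo1, Hsd17b7, Ebp, Tm7sf2 and Dhcr7 had no call in either genotype comparison. Over all 19 sterol enzymes the median genotype difference was 0.19 in each state, with 18 of 19 above 0 untreated and 17 of 19 under R848.

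The 4 control and transport genes showed small genotype differences and no call. Srebf2, which encodes the SREBP that mainly drives sterol genes, lay at 212.8 and 236.5 CPM in untreated WT cells, 244.1 and 244.9 CPM in WT cells with R848, 251.8 and 253.4 CPM in untreated KAT8-deficient cells and 257.6 and 269.9 CPM in KAT8-deficient cells with R848. All 4 KAT8-deficient libraries were above all 4 WT libraries, with differences of 0.17 (SE 0.0655, adjusted p = 0.193, edgeR) untreated and 0.11 (SE 0.0654, adjusted p = 0.321) under R848. Srebf1, whose products mainly drive fatty acid genes, lay at 67.0 and 71.8 CPM, 59.9 and 67.4 CPM, 80.6 and 72.0 CPM, and 65.7 and 76.3 CPM in the same order, with overlap between genotypes under R848. Its differences were 0.14 (adjusted p = 0.485) and 0.16 (adjusted p = 0.342). These are transcript levels, and the cleavage that activates the SREBP proteins was not measured.

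Stard4, whose product carries cholesterol between membranes inside the cell, lay at 61.2 and 56.1 CPM in untreated WT cells, 67.4 and 71.7 CPM in WT cells with R848, 69.5 and 64.4 CPM in untreated KAT8-deficient cells and 80.2 and 74.7 CPM in KAT8-deficient cells with R848. Its genotype differences were 0.19 (SE 0.0778, adjusted p = 0.214, edgeR) untreated and 0.16 (SE 0.0771, adjusted p = 0.232) under R848. Insig1 had a genotype difference of 0.18 (SE 0.0614, adjusted p = 0.151) untreated and of -0.02 (SE 0.061, adjusted p = 0.861) under R848, and the sign of the second changed when single libraries were left out (0.019 without the second WT library with R848 and 0.028 without the second KAT8-deficient library with R848).

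The fatty acid genes had a larger median genotype difference under R848 than the sterol enzymes (0.37 against 0.19), a contrast between lists that was not tested. All 8 were higher in both KAT8-deficient libraries than in both WT libraries there, against 29.2% of all genes. The test called 4 of the 8 higher there, against 8.14% of all genes. Untreated, 7 of the 8 were separated upwards, against 24.9% of all genes, and the median was 0.17. There 1 of the 8 was called higher, against 2.91% of all genes. Fasn (chr11:120805846-120824547), the fatty acid synthase gene, lay at 171.0 and 198.1 CPM in untreated WT cells, 182.4 and 200.0 CPM in WT cells with R848, 235.3 and 239.0 CPM in untreated KAT8-deficient cells and 248.8 and 249.5 CPM in KAT8-deficient cells with R848. All 4 KAT8-deficient libraries lay above all 4 WT libraries, and the 2 WT groups overlapped. Fasn rose in KAT8-deficient cells by 0.36 (SE 0.0799, adjusted p = 0.0429, edgeR) untreated and by 0.38 (SE 0.0798, adjusted p = 0.0148) under R848. Over the fits that left out 1 library the adjusted p ran from 0.0292 to 0.192 untreated, passing only without the second untreated WT library, and from 0.00654 to 0.115 under R848. The untreated call was also lost when only the 4 untreated libraries were fitted (adjusted p = 0.0779).

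The desaturases followed. Scd2 (chr19:44293674-44306864), a stearoyl-CoA desaturase that puts the first double bond into saturated fatty acids, lay at 278.4 and 278.8 CPM in untreated WT cells, 256.5 and 276.1 CPM in WT cells with R848, 314.9 and 315.7 CPM in untreated KAT8-deficient cells and 377.8 and 325.8 CPM in KAT8-deficient cells with R848. Its genotype difference was 0.18 (SE 0.0772, adjusted p = 0.24, edgeR) untreated and 0.40 (SE 0.0772, adjusted p = 0.0104) under R848. Without the first KAT8-deficient library with R848, the highest of the 8, the second value was 0.29 with adjusted p = 0.0591. Its paralog Scd1, its neighbour on chromosome 19, lay at 63.9 and 57.5 CPM, 56.8 and 60.4 CPM, 65.9 and 67.4 CPM, and 86.5 and 67.1 CPM in the same order, with a difference of 0.39 (SE 0.115, adjusted p = 0.0573) under R848 that did not pass, and of 0.13 (adjusted p = 0.564) untreated. The R848 value of Scd1 passed with no filter (adjusted p = 0.0196), DESeq2's Wald test (adjusted p = 0.0287), robust spread (adjusted p = 0.041) and without the second KAT8-deficient library with R848 (0.566, adjusted p = 0.00694). Without the first of those libraries it was 0.198 (adjusted p = 0.275), and these 2 fits set the range over its alternatives.

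Fads1 (chr19:10182888-10196877) and Fads2 (chr19:10062765-10101746), neighbours on chromosome 19, encode the desaturases that turn essential fatty acids into the long polyunsaturated precursors of eicosanoids. Fads1 lay at 109.1 and 111.7 CPM in untreated WT cells, 97.2 and 98.7 CPM in WT cells with R848, 124.7 and 123.5 CPM in untreated KAT8-deficient cells and 129.5 and 120.0 CPM in KAT8-deficient cells with R848. Fads2 lay at 35.6 and 35.5 CPM, 31.1 and 29.3 CPM, 45.9 and 41.4 CPM, and 48.2 and 40.9 CPM in the same order. In both genes the WT libraries with R848 were the lowest and the KAT8-deficient libraries the highest. Under R848 the genotype difference was 0.35 (SE 0.0594, adjusted p = 0.00586, edgeR) for Fads1 and 0.56 (SE 0.0971, adjusted p = 0.00653) for Fads2, the largest of the 31 genes. Untreated it was 0.17 (SE 0.0593, adjusted p = 0.158) and 0.30 (SE 0.0966, adjusted p = 0.133). Each R848 call was kept in 7 of 8 fits that left out 1 library; it was lost without the first WT library with R848 for Fads1 (adjusted p = 0.058) and without the second for Fads2 (adjusted p = 0.0538).

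Acly and Acaca supply acetyl-CoA and malonyl-CoA to the synthase. Acly lay from 316.3 to 324.9 CPM in the 4 WT libraries and from 333.8 to 359.7 CPM in the 4 KAT8-deficient ones, with no call. Acaca lay at 29.5 and 49.0 CPM in untreated WT cells, 49.1 and 49.8 CPM in WT cells with R848, 54.8 and 50.1 CPM in untreated KAT8-deficient cells and 52.4 and 51.9 CPM in KAT8-deficient cells with R848. The first untreated WT library stands alone, and the untreated genotype difference of 0.42 (SE 0.188, adjusted p = 0.252, edgeR) was 0.092 without it and 0.837 with adjusted p = 0.00841 without the second untreated WT library. Under R848 the difference was 0.08 (adjusted p = 0.826). Elovl6, which lengthens palmitate, lay at 27.7 and 29.1 CPM in WT cells with R848 and at 37.9 and 31.7 CPM in KAT8-deficient cells with R848, a difference of 0.29 (adjusted p = 0.158).

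**Figure D4:**
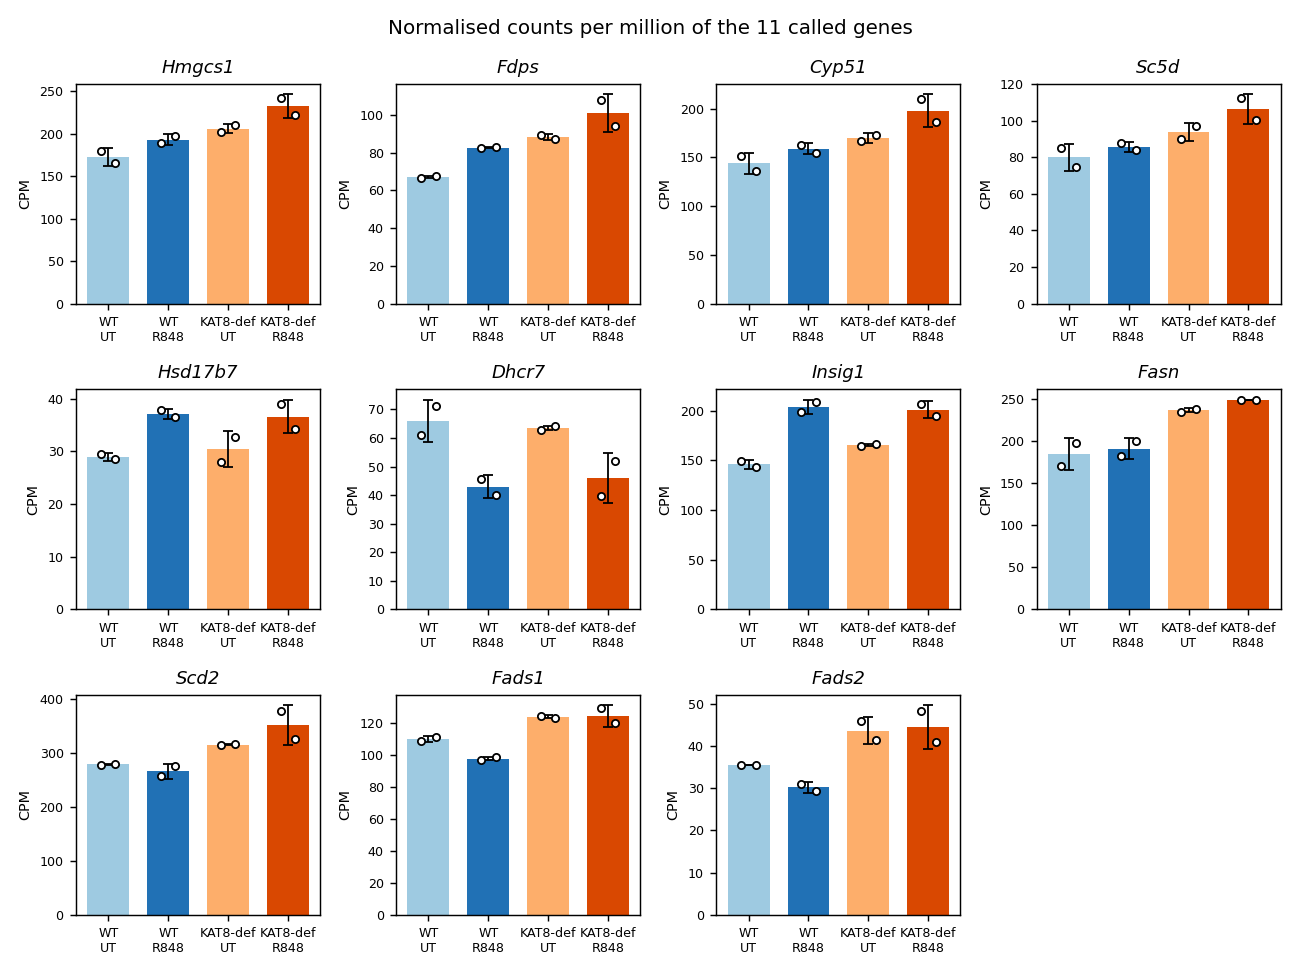
CPM (y axes, each starting at 0) of the 11 genes called in at least 1 comparison in the 4 groups, with bars at the mean, error bars of 1 SD and points for the 2 libraries of each group (UT, untreated). Fdps and Hmgcs1 step up across the 4 groups, Dhcr7 is lower with R848, and Fads1 and Fads2 are lowest in WT cells with R848 and higher in all KAT8-deficient libraries.

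The second question is how these genes respond to R848 in each genotype. In WT cells Insig1, Fdps and Hsd17b7 rose and Dhcr7 fell, that is 4 of 31 (12.9%), 3 higher and 1 lower. Over all genes 13.6% were called, 6.94% higher and 6.7% lower, so the share of the 31 was close to the background. In KAT8-deficient cells none of the 31 passed edgeR's test, and 0.634% of all genes did, 0.499% higher and 0.135% lower. There 11 of the 31 had an unadjusted p under 0.05, as did 1944 of all 14040 genes (13.8%), limma-voom also called 0, and DESeq2's Wald test called 3 (Idi1 and Msmo1 higher, Dhcr7 lower). The whole table thus had fewer called genes in KAT8-deficient than in WT cells, and not this gene set alone.

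Both libraries with R848 lay above both untreated libraries for 18 of the 31 genes in WT cells and below for 5, against 27.7% and 28.3% of all genes. In KAT8-deficient cells the counts were 17 and 1 (Dhcr7), against 23.8% and 23.0% of all genes. The 2 responses share no library, though genes of the same pathway may not be independent. In both, 12 of the 31 (38.7%) were separated upwards, against 13.0% of all genes: Hmgcs1, Fdps, Cyp51, Idi1, Mvd, Msmo1, Hsd17b7, Ggps1, Srebf2, Insig1, Stard4 and Elovl6. The median response was 0.12 in each genotype, against 0.00 over all genes, with 22 of 31 above 0 in WT and 25 of 31 in KAT8-deficient cells. Without the first KAT8-deficient library with R848 the median in those cells was 0.042, and without the second it was 0.217. In WT cells, 1 gene was called higher without either WT library with R848, and 0 lower without the second untreated WT library or the second WT library with R848.

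**Figure D5:**
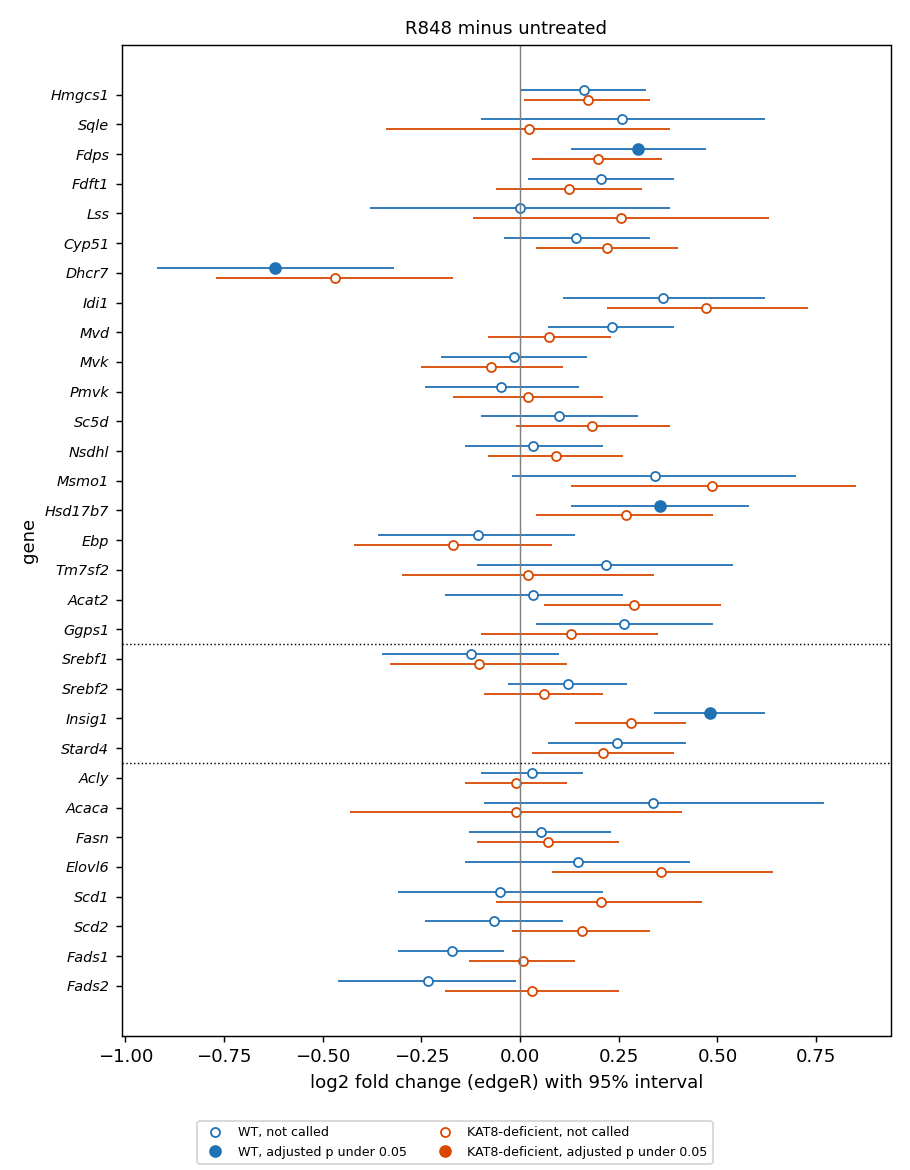
Log2 difference between R848 and untreated cells (x axis, edgeR, with 95% intervals) for each of the 31 genes (y axis, by role) in WT cells (blue) and KAT8-deficient cells (orange), with filled points for an adjusted p under 0.05. The 4 filled points are in WT cells (Fdps, Dhcr7, Hsd17b7 and Insig1), Dhcr7 lies left of 0 in both genotypes, and the intervals of the 2 genotypes overlap for every gene.

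Insig1 (chr5:28071363-28078662), whose product retains the SREBP complex in the endoplasmic reticulum and is itself an SREBP target, had the clearest response. It lay at 149.6 and 143.0 CPM in untreated WT cells, 199.2 and 209.3 CPM in WT cells with R848, 164.8 and 166.4 CPM in untreated KAT8-deficient cells and 207.4 and 195.3 CPM in KAT8-deficient cells with R848. All 4 libraries with R848 lay above all 4 untreated libraries. Insig1 rose by 0.48 (SE 0.0613, adjusted p = 0.0013, edgeR) in WT cells, a call that passed in all 8 fits that left out a library and under all 8 other alternatives. In KAT8-deficient cells the response was 0.28 (SE 0.0612, adjusted p = 0.0969), which did not pass.

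Dhcr7 (chr7:143823145-143848410), the reductase of the last step to cholesterol, moved the other way. It lay at 60.9 and 71.3 CPM in untreated WT cells, 45.7 and 40.2 CPM in WT cells with R848, 62.9 and 64.1 CPM in untreated KAT8-deficient cells and 39.7 and 52.1 CPM in KAT8-deficient cells with R848. All 4 libraries with R848 were below all 4 untreated libraries. Dhcr7 fell by 0.62 (SE 0.133, adjusted p = 0.0163, edgeR) in WT cells, and the response in KAT8-deficient cells was -0.47 (SE 0.132, adjusted p = 0.18). The WT call was lost without the second untreated WT library or the second WT library with R848, with adjusted p from 0.00488 to 0.104 over the fits that left out 1 library.

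Hsd17b7 (chr1:169949535-169969241), a sterol ketoreductase of the later pathway, lay at 29.5 and 28.5 CPM in untreated WT cells, 37.8 and 36.5 CPM in WT cells with R848, 28.0 and 32.8 CPM in untreated KAT8-deficient cells and 38.9 and 34.3 CPM in KAT8-deficient cells with R848. It rose by 0.36 in WT cells (SE 0.0998, adjusted p = 0.0489, edgeR), just inside the threshold; 4 of 8 other alternatives and 6 of 8 fits without a library lost the call, with adjusted p from 0.0342 to 0.225 over all of them. The response in KAT8-deficient cells was 0.27 (SE 0.0995, adjusted p = 0.285). Fdps rose by 0.30 (SE 0.0747, adjusted p = 0.0318) in WT cells, and its response in KAT8-deficient cells was 0.20 (SE 0.0739, adjusted p = 0.291). The WT call of Fdps was kept by all 8 other alternatives and by 2 of 8 fits without a library, those without a KAT8-deficient library with R848.

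Several genes had responses of like size without a call. Idi1, the isopentenyl diphosphate isomerase, lay at 72.9 and 57.8 CPM in untreated WT cells, 82.0 and 86.2 CPM in WT cells with R848, 69.3 and 77.1 CPM in untreated KAT8-deficient cells and 107.1 and 95.9 CPM in KAT8-deficient cells with R848. Its response was 0.36 (SE 0.113, adjusted p = 0.0698, edgeR) in WT and 0.47 (SE 0.112, adjusted p = 0.118) in KAT8-deficient cells. Both responses of Idi1 passed with no filter and with DESeq2's Wald test, and over the alternatives the adjusted p ran from 0.0208 to 0.296 in WT and from 0.012 to 0.554 in KAT8-deficient cells. The WT value was 0.526 (adjusted p = 0.0208) without the first untreated WT library and 0.209 (adjusted p = 0.296) without the second. Msmo1, a sterol methyl oxidase, gave 0.34 (adjusted p = 0.205) and 0.49 (adjusted p = 0.234), with libraries with R848 from 89.2 to 134.2 CPM and untreated ones from 76.0 to 88.8 CPM. The WT value of Msmo1 was 0.107 (adjusted p = 0.776) without the first WT library with R848 and 0.528 (adjusted p = 0.0894) without the second. The KAT8-deficient value was 0.652 (adjusted p = 0.139) without the first KAT8-deficient library with R848 and 0.291 (adjusted p = 0.588) without the second. Stard4 gave 0.25 (adjusted p = 0.0735) and 0.21 (adjusted p = 0.279), Mvd gave 0.23 (adjusted p = 0.0617) in WT, and Sqle gave 0.26 (adjusted p = 0.34) in WT, which passed with only the 4 WT libraries (adjusted p = 0.0493) or without either KAT8-deficient library with R848 (adjusted p = 0.0295 and 0.0311). Hmgcs1 gave 0.16 (adjusted p = 0.177) and 0.17 (adjusted p = 0.326). Srebf2 gave 0.12 (adjusted p = 0.271) and 0.06 (adjusted p = 0.719), and Srebf1 -0.12 (adjusted p = 0.475) and -0.10 (adjusted p = 0.684).

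The fatty acid genes had a median response of -0.01 in WT cells, with 4 of 8 above 0, against 0.16 and 15 of 19 for the sterol enzymes. In KAT8-deficient cells the medians were 0.05 and 0.13; neither difference between the lists was tested. Fads1 and Fads2 gave -0.17 (SE 0.0595, adjusted p = 0.0967, edgeR) and -0.23 (SE 0.0979, adjusted p = 0.164) in WT cells, and Scd2 -0.07 (SE 0.0772, adjusted p = 0.647); the WT libraries with R848 lay below the untreated ones for all 3. None of the 8 passed in either genotype.

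Whether the response differs by genotype was tested directly as the interaction, in which the WT response is subtracted from that of KAT8-deficient cells. None of the 31 genes passed edgeR's test, against 0.228% of all genes (0.057% higher and 0.171% lower). Of the 31, 1 gene, Insig1, had an unadjusted p under 0.05, against 1600 of all 14040 genes (11.4%), at -0.20 (SE 0.0865, unadjusted p = 0.0479, adjusted p = 0.43). DESeq2's Wald test and limma-voom also called 0 of the 31. Values for the desaturases were 0.26 for Fads2 (SE 0.137, 95% interval -0.05 to 0.57, adjusted p = 0.524), 0.22 for Scd2 (SE 0.109, 95% interval -0.03 to 0.47, adjusted p = 0.491) and 0.18 for Fads1 (SE 0.0839, 95% interval -0.01 to 0.37, adjusted p = 0.468). The intervals include 0 and also include values as large as the genotype differences themselves, so a call in either state alone is not shown to be a difference between states.

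Genes of these pathways outside the 31 were counted too. Of 16 tested genes of other mevalonate branches and sterol binding, 1 (6.25%, against 4.27% of all genes) was called in KAT8-deficient cells untreated, where it was higher: Aacs, a cytosolic acetoacetyl-CoA synthetase that feeds sterol synthesis. It lay at 63.6 and 75.5 CPM in untreated WT and 96.7 and 92.5 CPM in untreated KAT8-deficient cells (0.44, SE 0.0833, adjusted p = 0.0259, edgeR). Under R848 1 of the 16 was called, against 13.6% of all genes, and was lower: Coq2 of ubiquinone synthesis (-0.30, adjusted p = 0.0353). Their median genotype difference was -0.01 untreated and -0.03 under R848, and 7 and 6 of 16 lay above 0. None of the 16 was called in an R848 response, against 13.6% of all genes in WT and 0.634% in KAT8-deficient cells, with 3 and 0 at an unadjusted p under 0.05.

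Of 23 genes of SREBP control, sterol transport and oxysterol sensing, 6 (26.1%, against 13.6% of all genes) were called in the WT response to R848. Ch25h, which makes an oxysterol from cholesterol, rose by 1.2 (adjusted p = 0.0037, edgeR), Nr1h3, the oxysterol receptor LXRα, by 0.52 (adjusted p = 0.00742), and Rnf145, a ubiquitin ligase that acts on the sterol machinery, by 0.45 (adjusted p = 0.00173). Soat1, which esterifies cholesterol for storage, fell by 0.48 (adjusted p = 0.00154), Npc1, the lysosomal cholesterol exporter, by 0.24 (adjusted p = 0.0363), and Cyp27a1, a sterol hydroxylase, by 0.43 (adjusted p = 0.0449). None of the 23 was called by genotype untreated, against 4.27% of all genes, with 6 at an unadjusted p under 0.05, against 20.3% of all genes. Under R848 3 of the 23 (13.0%, against 13.6% of all genes) were called: Soat1 was higher in KAT8-deficient cells (0.25, adjusted p = 0.0318), and Rnf145 (-0.28, adjusted p = 0.0156) and Nr1h2 (-0.30, adjusted p = 0.0467), the LXRβ gene, were lower. Soat1 lay at 778.1 and 742.5 CPM in untreated WT cells, 566.5 and 526.3 CPM in WT cells with R848, 661.0 and 705.5 CPM in untreated KAT8-deficient cells and 658.7 and 642.7 CPM in KAT8-deficient cells with R848.

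Of 27 tested genes of other fatty acid steps, 4 were called in the WT response and 4 by genotype under R848 (14.8% each, against 13.6% of all genes in each), and 1 by genotype untreated (3.7%, against 4.27%). The phosphatidate phosphatase gene Lpin1 showed the largest response of the list to R848 in WT cells. It lay at 40.1 and 42.5 CPM in untreated WT cells, 21.0 and 22.5 CPM in WT cells with R848, 37.6 and 40.0 CPM in untreated KAT8-deficient cells and 40.5 and 31.6 CPM in KAT8-deficient cells with R848. Lpin1 fell by 0.93 in WT cells (adjusted p = 0.00131, edgeR) and was higher by 0.73 in KAT8-deficient than in WT cells under R848 (adjusted p = 0.00466); its interaction was 0.82 (SE 0.165, adjusted p = 0.0833), which did not pass. That interaction passed with no filter (adjusted p = 0.0146), DESeq2's Wald test (adjusted p = 0.00622), robust spread (adjusted p = 0.0407) and without the second KAT8-deficient library with R848 (adjusted p = 0.0122), and over its alternatives the adjusted p ran up to 0.299. In WT cells the acyl-CoA synthetase genes Acsl4 (0.34, adjusted p = 0.00684) and Acsl5 (0.36, adjusted p = 0.00494) rose, and Hacd4, a dehydratase of chain elongation, fell by 0.37 (adjusted p = 0.0168). Fads6 (0.85, adjusted p = 0.0206, and 0.545 with adjusted p = 0.106 without the first KAT8-deficient library with R848) and the elongase gene Elovl5 (0.25, adjusted p = 0.0483) were higher and Acsl5 lower (-0.38, adjusted p = 0.00396) in KAT8-deficient cells under R848, and Acsl1 was lower untreated (-1.06, adjusted p = 0.0448). The median genotype difference of the 27 was 0.04 untreated and 0.11 under R848. Of these calls outside the 31, those of Rnf145, Ch25h, Soat1 and Lpin1 in the WT response and of Lpin1 and Acsl5 by genotype under R848 passed in all 8 fits without a library; each of the others was lost in at least 1.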

How the data were processed

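The table holds 1 column of whole-number counts per Ensembl gene for each of the 8 libraries, as deposited and per the file headers, with 0 columns left over. Per the submitters' processing notes, StringTie 1.3.0, HISAT2 and edgeR were used on mm10; no source used here gives the annotation, counting or strand settings. Messenger RNA was captured on beads, per the labels' protocols.

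Symbols and positions (GRCm38) were found for 34267 of 34745 identifiers. The 31 genes, the other pathway and marker lists, the tests and the alternatives were chosen with earlier results of these data known. Genes with low counts were removed with filterByExpr, which left 14040 genes with 99.95% of all counts; the 31 were tested because all of them passed this filter. Counts were normalised by TMM and fitted over all 8 libraries with edgeR 4.0.16 (R 4.3.3), with a mean for each of the 4 groups; this left 4 residual degrees of freedom, and the common biological CV was 0.0956. Contrasts used the two-sided quasi-likelihood test, p-values were adjusted over all tested genes by Benjamini-Hochberg, and the threshold was 0.05. SE is the absolute log2 difference over the square root of F. The method was run on simulated data with the same spread for every gene and independent libraries. That setting is simpler than these replicates, so it does not show how often calls hold here. A CPM is a count scaled to the TMM library size, and the floor of 3 counts covers counting error only.

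The genes called in any contrast and 10 chosen genes (Hmgcs1, Sqle, Srebf1, Srebf2, Insig1, Stard4, Fasn, Acaca, Scd1 and Scd2) were given in every library, and from the other lists up to 4 called genes with the smallest adjusted p per contrast; further genes were named after their values were seen. The replicates of a group differed by more than counting error (chi-square per degree of freedom 7.41 to 11.96). The alternatives were DESeq2 (1.42.0) size factors and Wald test, limma-voom (limma 3.58.1), no filter, at least 5 CPM in at least 2 libraries, robust spread, a replicate block, only the 4 libraries of a comparison, and leaving out each library. Promoters came from RefSeq on GRCm38.p6.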

Additional observations from a re-analysis of the deposited data

Results flagged for a closer look

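Scd2 was separated in opposite directions by R848: both WT libraries with R848 (256.5 and 276.1 CPM) lay below both untreated WT libraries (278.4 and 278.8 CPM), and both KAT8-deficient libraries with R848 (377.8 and 325.8 CPM) lay above both untreated ones (314.9 and 315.7 CPM). Neither response passed edgeR's test (-0.07 with adjusted p = 0.647 in WT and 0.16 with adjusted p = 0.405 in KAT8-deficient cells). The difference between the responses was 0.22 (SE 0.109, adjusted p = 0.491), which did not pass either, and it ran from 0.116 to 0.333 over the fits that left out 1 library. Scd2 was the only 1 of the 31 genes separated in this way, which 280 of all 14040 tested genes were (1.99%), and the reverse held for 0 of the 31 and 264 of all (1.88%). With 2 libraries per group, no library could be examined as an outlier of its group.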

How the results depend on the processing

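Each group has 2 libraries, and most calls in the 31 genes were lost under at least 1 alternative. The direction of 98 gene differences was recomputed under the alternatives, giving 1563 values: 1383 kept direction and side of the threshold, 149 kept the direction and no longer passed, 29 newly passed and 2 changed sign. The 2 were Insig1 by genotype under R848, at 0.019 without the second WT library with R848 and 0.028 without the second KAT8-deficient library with R848, in a range from -0.062. Among the calls of the 31 genes, that of Insig1 in WT cells passed under every alternative run. The cause of the changes below was not tested.

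In the R848 response of KAT8-deficient cells, 89 genes were called; the count was 274 without a filter, 238 with DESeq2's Wald test, 158 with robust spread and 22 with only the 4 libraries compared. Of the 31 genes, 1 was higher without a filter, and 2 were higher and 1 lower with DESeq2, in place of 0. By genotype untreated, 4 of the 31 were higher with robust spread in place of 2, and 384 genes were called with only the 4 libraries in place of 600. By genotype under R848, 4 of the 31 were higher with only the 4 libraries in place of 8. The interaction gave 245 genes without a filter, 231 with DESeq2 and 148 with robust spread in place of 32.

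Leaving out 1 library at a time gave 858 to 1826 called genes in the WT response (1916 with all), with 1 to 3 of the 31 higher and 0 to 1 lower. It gave 2 to 186 in the KAT8-deficient response, where the median of the 31 ran from 0.042 to 0.217, 66 to 606 by genotype untreated, with 0 to 3 of the 31 higher, and 784 to 1894 by genotype under R848 (1911 with all), with 1 to 10 of the 31 higher and a median from 0.187 to 0.286. The interaction gave 6 to 208.

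Replicate numbers gave no sign of a pairing: deviations of same-numbered libraries from their group means correlated from -0.06 to 0.048 between groups. These correlations took all tested genes alike, those with low counts included, so a weak pairing could be missed. A replicate block gave 1875 called genes in the WT response, 73 in the KAT8-deficient response, 531 and 1871 by genotype untreated and under R848, and 25 in the interaction. Of the calls in the 31 genes the block lost that of Hsd17b7 in WT cells (adjusted p = 0.065), leaving 2 higher in place of 3.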
